A study of Mus musculus with 14 samples.

Results

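Polycomb repressive complex 1 (PRC1) is a set of related chromatin complexes built on a RING ubiquitin ligase. The genes described here are 9 of its subunits in the mouse, from canonical and variant forms of the complex: Ring1, Rnf2, Bmi1, Pcgf5, Cbx2, Cbx6, Cbx7, Cbx8 and Phc1. They were taken as a named list, 9 of the 52550 genes counted, and were followed in 3 groups of samples and with both retroviral vectors. Of the 9, 8 passed the filter on low counts in each comparison and Cbx6 passed in none.

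The study asked how deletion of the microRNA gene Mir139 and expression of the fusion oncoprotein MLL-AF9 act in hematopoietic stem and progenitor cells (HSPCs). Total RNA depleted of ribosomal RNA was sequenced from 14 samples, all from C57BL/6 mice of 8 to 20 weeks. WT HSPCs (n = 4) were from mice with Mir139, and Mir139KO HSPCs (n = 4) from mice in which Mir139 had been deleted with CRISPR-Cas9. Both were bone marrow cells of femur and tibia enriched with a commercial lineage depletion set, and the labels speak of lysis at once or of overnight expansion without saying which applied to a sample. MLL-AF9 cells (n = 6) were WT HSPCs that grew overnight in a cytokine mix (SCF, GM-CSF, IL-6 and IL-3) and were transduced with pMSCV-MLL-AF9-neo (replicates 1 to 3) or pMSCV-MLL-AF9-puro (replicates 4 to 6). They were then selected with the matching drug and replated in semisolid medium, so that the fusion gene was expressed from a retroviral promoter. Replated cultures that lacked the fusion gene are not among these samples, so MLL-AF9 and the selection and replating cannot be told apart. The labels do not say that replicates came from separate mice or transductions, or whether a culture was a clone, and p-values then measure only the spread between these samples, which may be technical.

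PRC1 places a single ubiquitin on histone H2A, and it is known for keeping developmental genes such as the Hox clusters silent. Every form holds RING1 or RNF2 (RING1B) as the ligase together with a PCGF protein. In canonical PRC1 this is BMI1 (PCGF4) or PCGF2, joined by a CBX protein that reads the histone mark of Polycomb repressive complex 2 and by a PHC protein that links complexes to each other. Variant PRC1 holds RYBP or YAF2 instead of a CBX protein, and the PCGF partner, such as PCGF5, sets which further proteins it carries. In blood, BMI1 is known for its part in stem cell self-renewal.

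Because the study deleted Mir139, the sequence of its main product is shown together with the members' matches to its seed, the bases 2 to 8 that lead target recognition (capitals; mature sequence from RefSeq, GRCm38.p6, chr7:101475382-101475403, plus strand).
miR-139-5p: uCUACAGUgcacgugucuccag
The matching letters ACTGTAG were searched behind the stop codon of the longest coding transcript of each gene (GENCODE M21, GRCm38). Of the 12609 coding genes tested between the HSPC genotypes, 12.8% held at least 1 match and 0.23% held 3 or more, and among the 538 of them with at least 5000 bases to search 14 held 3 or more. Among the 9 members, Pcgf5 held 3 matches and Bmi1 held 1, and no match was found for the other 7. The stretch searched in Pcgf5 was 5302 bases long, against a median of 1111 bases over all genes. Each match is given with 10 bases on either side and the match in capitals; the coordinates are those of the match, on the plus strand.
Pcgf5, chr19:36456755-36456761: tattttaaatACTGTAGtaaccagggg
Pcgf5, chr19:36457993-36457999: acaaacaagcACTGTAGtcagcgttac
Pcgf5, chr19:36460195-36460201: aaaagaaccaACTGTAGcacaaacgaa
Bmi1, chr2:18685850-18685856: tgtatgggaaACTGTAGctaagcattt
A match of letters is a description and does not show that the microRNA acts there. The counts could not check the deletion itself: the Mir139 gene was listed at 0 in all 14 libraries, WT included.

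The promoter windows of Pcgf5, which had the largest rise in MLL-AF9 cells of the members, and of Cbx8, which fell, are shown from RefSeq (GRCm38.p6, 250 bases before to 50 bases after the gene start, on the strand of the gene). Capitals mark the GC box (GGGCGG, or CCGCCC on the other strand) and the E-box (CACGTG, which reads the same on both strands). The GC box was present in 35.7% and the E-box in 7.15% of the 32851 windows in the table.
Pcgf5, chr19:36348079-36348378, plus strand: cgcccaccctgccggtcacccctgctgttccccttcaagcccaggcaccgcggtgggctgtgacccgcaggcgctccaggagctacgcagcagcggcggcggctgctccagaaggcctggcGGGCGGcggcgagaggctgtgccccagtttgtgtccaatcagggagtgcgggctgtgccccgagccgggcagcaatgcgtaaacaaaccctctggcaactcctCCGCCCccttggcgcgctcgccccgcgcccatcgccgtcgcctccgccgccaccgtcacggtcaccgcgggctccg
Cbx8, chr11:119040864-119041163, minus strand: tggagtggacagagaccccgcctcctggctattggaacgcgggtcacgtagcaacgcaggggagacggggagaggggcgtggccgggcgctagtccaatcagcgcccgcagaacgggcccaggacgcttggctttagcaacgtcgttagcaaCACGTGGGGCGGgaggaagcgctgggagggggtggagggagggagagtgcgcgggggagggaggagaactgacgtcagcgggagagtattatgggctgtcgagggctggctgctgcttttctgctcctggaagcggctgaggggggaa
The Pcgf5 window held 34 CpG and 2 GC boxes, and the Cbx8 window held 24 CpG with an E-box directly followed by a GC box, no base being shared. The median window held 7 CpG. Windows of Ring1, Rnf2, Bmi1, Cbx6 and Cbx7 held 23 to 37 CpG and at least 1 GC box each, whereas that of Phc1 held 9 CpG and no GC box, and Cbx2 was not matched in the table. The table gives 3 starts for Pcgf5, of which the one at the start of the gene is shown.

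Libraries held 35016668 to 45877994 counts. Levels are given as CPM, the counts of a gene relative to the total of its library, with TMM factors over all libraries, and 3 counts, taken as the smallest level that could be seen, were 0.0545 to 0.129 CPM. A single noncoding RNA gene, Gm26917, took 16.99 to 35.44% of the counts in HSPC libraries and 7.55 to 10.41% in MLL-AF9 libraries. It divided the HSPC libraries of each genotype into 2 under a share of 25% (16.99 to 21.93%; WT replicates 1 and 2, Mir139KO replicates 2 and 3) and 2 over it (32.7 to 35.44%; WT replicates 3 and 4, Mir139KO replicates 1 and 4). Of 15056 genes, 65.2% did not overlap between these classes. The members followed the classes as well, and differences of members from WT HSPCs are therefore also given against the low-share and the high-share libraries. What the share stands for was not tested.

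In the 4 low-share HSPC libraries Rnf2 lay at 10.99 to 25.2 CPM and in the 4 high-share libraries at 5.07 to 7.27 CPM. Pcgf5 likewise lay at 21.5 to 37.5 and 10.8 to 15.1 CPM. The other direction was seen for Ring1, at 18.3 to 21.5 CPM in low-share and 36.9 to 44.4 CPM in high-share libraries, and for Cbx2, Cbx7, Cbx8 and Phc1. Thus 7 of the 8 measured members did not overlap between the classes, and only the ranges of Bmi1 (3.50 to 13.1 and 1.57 to 3.97 CPM) did. The 3 members that were lower in high-share libraries have AT-rich transcripts, with a GC content of 40.2% (Bmi1), 39.5% (Rnf2) and 40.4% (Pcgf5). The 5 that were higher have a GC content of 53.1% (Phc1) to 57.6% (Cbx2).

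Cbx6 was listed at 0 in 13 libraries and at 4 counts in MLL-AF9 replicate 5. Its gene (ENSMUSG00000089715, chr15:79823896-79834688, minus strand) has 10609 exon bases in GENCODE M21, of which 94.7% are shared with no other gene. It shares 563 exon bases on the same strand with Npcd, which held 5 to 76 counts per library. The authors counted with an earlier GENCODE release, whose overlaps were not checked. How reads on both genes were counted is not stated, and Skp1a, a gene that nearly every cell uses, was also listed at 0 in all 14 libraries. The level of Cbx6 is therefore not described further.

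**Figure D1:**
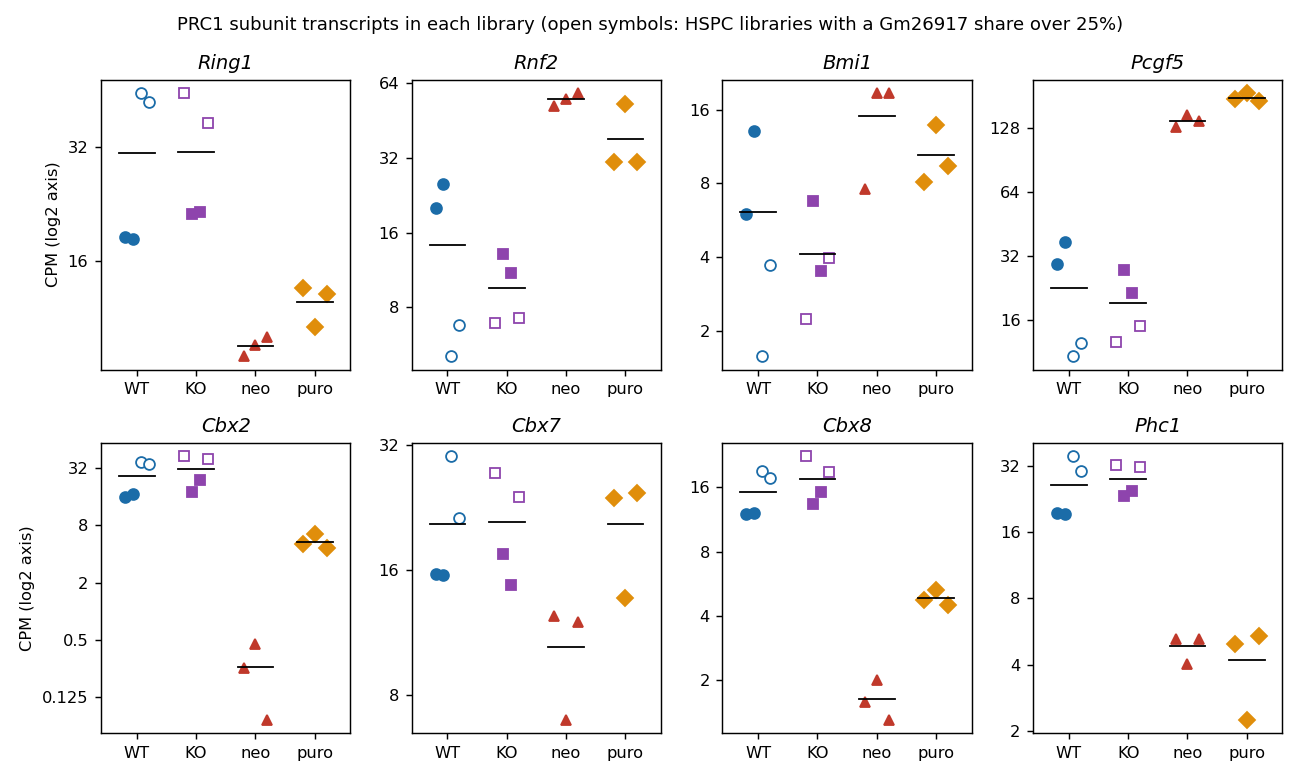
Level of each measured member in each of the 14 libraries, in CPM on a log2 axis, for WT and Mir139KO HSPCs (n = 4 each) and MLL-AF9 cultures with the neo or puro vector (n = 3 each); lines are group means and open symbols are HSPC libraries with a Gm26917 share over 25%. Pcgf5 lay at 129.8 to 187.2 CPM in MLL-AF9 cells and at 10.8 to 37.5 CPM in WT HSPCs, and Cbx2 at 0.0727 to 0.453 CPM in neo cultures and 4.65 to 6.41 CPM in puro cultures.

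MLL-AF9 cells were first compared with WT HSPCs. The canonical subunits Cbx2, Cbx8 and Phc1 and the ligase Ring1 fell, whereas the ligase Rnf2 and the variant subunit Pcgf5 rose. In bulk RNA, fewer cells of a type and less RNA per cell cannot be told apart. Of the 8 members tested, 6 passed an adjusted p of 0.05 in edgeR's quasi-likelihood test, 2 higher and 4 lower in MLL-AF9 cells. Many genes differed between these cells: of 17077 genes tested 62.2% passed, 32.8% as higher and 29.4% as lower. Of them all, 50.5% showed no overlap of the groups. The same 6 members did not overlap. The median log2 fold change of the members was -0.96, against 0.14 over all genes tested, so a change of some member was not unusual and its size and direction are what the values show.

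Both ligases were measured. Ring1 (ENSMUSG00000024325, chr17:34020792-34024680, minus strand) lay at 18.5, 18.3, 44.4 and 42.2 CPM in WT replicates 1 to 4. Its level in MLL-AF9 cells was 8.92, 9.56 and 10.03 CPM with the neo vector and 13.6, 10.7 and 13.1 CPM with the puro vector. All 6 cultures were below the lowest WT library. Ring1 fell by 1.51 on the log2 scale (SE 0.31, edgeR adjusted p = 0.00139, n = 6 and 4), with -0.81 when set beside the low-share WT libraries and -2.09 beside the high-share ones (adjusted p = 0.0267 and 6.94e-05).

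Rnf2 (ENSMUSG00000026484, chr1:151458004-151500955, minus strand), the other ligase, moved the opposite way. WT HSPCs held 20.0, 25.2, 5.07 and 6.76 CPM, neo cultures 51.9, 54.99 and 58.4 CPM, and puro cultures 30.7, 52.6 and 30.8 CPM. Each culture was above the highest WT library. Rnf2 rose by 1.69 (log2; SE 0.46, edgeR adjusted p = 0.00688). It rose by 0.97 against the low-share libraries (adjusted p = 0.0345) and by 2.86 against the high-share libraries (adjusted p = 0.000158). Rnf2 did not pass with puro cultures alone (1.41, adjusted p = 0.0602) or when the counts were corrected for transcript GC content (0.071, adjusted p = 0.792).

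Per kb of exon and without a GC correction, Ring1 made up 70.6 ± 22.8% of the level of both in WT (SD, n = 4) and 78.6 ± 10.8% in Mir139KO samples (SD, n = 4). The cultures had 24.3 ± 8.8% (SD, n = 6). In WT HSPCs the levels per kb of Ring1 (5.63 to 13.7 CPM per kb) and Rnf2 (1.23 to 6.10 CPM per kb) overlapped, and Rnf2 was above Ring1 in WT replicate 2. In MLL-AF9 cells Rnf2 was above Ring1 with no overlap. With the GC correction the change of Rnf2 did not pass and that of Ring1 was -0.50 (edgeR adjusted p = 0.0269). Within HSPCs the share of Ring1 was also 60.2 ± 11% in low-share and 89.1 ± 2.1% in high-share libraries (SD, n = 4 each).

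Among the PCGF proteins Pcgf5 (ENSMUSG00000024805, chr19:36348309-36460970, plus strand), the partner that defines one variant form of PRC1, stood out. Its level was 29.5, 37.5, 10.8 and 12.6 CPM in WT replicates 1 to 4. Neo cultures reached 129.8, 147.9 and 137.6 CPM and puro cultures 175.5, 187.2 and 171.1 CPM. No culture came near a WT library. Pcgf5 rose by 2.79 (log2; SE 0.39, edgeR adjusted p = 0.000114), by 2.17 against low-share and 3.65 against high-share WT libraries (adjusted p = 0.000298 and 1.27e-05). With the correction for GC content the rise was smaller, at 1.25 (adjusted p = 0.000167).

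Bmi1 (ENSMUSG00000026739, chr2:18677018-18686629, plus strand), a PCGF protein of canonical PRC1, did not pass. WT HSPCs held 6.02, 13.1, 1.57 and 3.72 CPM, neo cultures 7.60, 18.8 and 18.7 CPM, and puro cultures 8.07, 13.9 and 9.46 CPM. WT replicate 2 lay within the range of the cultures. The log2 fold change of 1.04 (SE 0.53) did not pass (edgeR adjusted p = 0.102). Bmi1 passed without WT replicate 2 (1.70, adjusted p = 0.0132) and against the high-share libraries alone (2.16, adjusted p = 0.00734). Against the low-share libraries the value was 0.35 (adjusted p = 0.559), and it turned to -0.45 (adjusted p = 0.216) with the GC correction.

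Over the 6 PCGF genes and without a GC correction, Pcgf5 held 10.5% of the summed level per kb in WT HSPCs and ranked 4th. Every PCGF gene overlapped its neighbour in that order. Over both genotypes, Pcgf5 held 13.5% in low-share and 7.1% in high-share HSPC libraries. In MLL-AF9 cells it ranked first with 42.8%, at 10.3 to 14.8 CPM per kb, with no overlap with the next gene, Pcgf3, at 4.12 to 5.48 CPM per kb. Bmi1 was last in WT HSPCs with 8.8% and 4th in MLL-AF9 cells with 11%, where it overlapped its neighbours. Whether Pcgf5 would also rank first with the GC correction was not tested, and its rise was smaller with it.

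The CBX proteins bring canonical PRC1 to chromatin. Cbx2 (ENSMUSG00000025577, chr11:119022962-119031270, plus strand) lay at 15.8, 16.9, 37.3 and 34.9 CPM in WT replicates 1 to 4. It was at 0.253, 0.453 and 0.0727 CPM in neo cultures, which is 13, 23 and 4 counts, and at 5.12, 6.41 and 4.65 CPM in puro cultures. Neo cultures were thus far below puro cultures, and all 6 were below each WT library. Cbx2 fell by 3.23 on the log2 scale (SE 0.94, edgeR adjusted p = 0.0101). The log2 fold change was -6.64 in neo cultures alone (adjusted p = 7.67e-05) and -2.28 in puro cultures alone (adjusted p = 0.00291). Against the low-share WT libraries alone the pooled difference did not pass (-2.60, adjusted p = 0.115), and against the high-share ones it did (-3.79, adjusted p = 0.0222).

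Cbx8 (ENSMUSG00000025578, chr11:119036305-119040969, minus strand) is the neighbour of Cbx2, 5034 bases away. WT HSPCs held 12.1, 12.2, 19.02 and 17.7 CPM, neo cultures 1.58, 2.01 and 1.31 CPM, and puro cultures 4.75, 5.31 and 4.50 CPM. The order WT, puro, neo was the same as for Cbx2, with no overlap between any of them. Cbx8 fell by 2.25 (SE 0.43, edgeR adjusted p = 0.000900), and by 1.46 with the GC correction (adjusted p = 0.00746). The values for low-share and high-share libraries were -1.97 and -2.62 (adjusted p = 0.0190 and 0.00236).

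Cbx7 (ENSMUSG00000053411, chr15:79915807-79971119, minus strand) did not pass. WT HSPCs held 15.7, 15.5, 30.0 and 21.3 CPM, neo cultures 12.4, 6.97 and 11.95 CPM, and puro cultures 23.8, 13.7 and 24.5 CPM. Its log2 fold change was -0.42 (SE 0.37, edgeR adjusted p = 0.333), with -0.065 and -0.83 for low-share and high-share libraries (adjusted p = 0.917 and 0.139). The sign turned to 0.013 in puro cultures alone, 0.28 when libraries were scaled by total counts only and 0.46 with the GC correction.

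By level per kb, Cbx2 ranked first of the 3 measured CBX members in WT HSPCs with 44.5 ± 5.1% of their sum (SD, n = 4), followed by Cbx8 with 31.6% and Cbx7 with 23.9%, and each overlapped the next. In MLL-AF9 cells the order was turned round, with Cbx7 at 64.7%, Cbx8 at 22.5% and Cbx2 at 12.8 ± 11.4% (SD, n = 6). Neo cultures kept the 3 ranges apart, and in puro cultures Cbx8 and Cbx2 overlapped. Other CBX genes are not part of these sums, and the levels were not corrected for GC content.

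Phc1 (ENSMUSG00000040669, chr6:122317731-122340561, minus strand), a PHC protein that joins canonical complexes, lay at 19.6, 19.4, 35.3 and 30.2 CPM in WT replicates 1 to 4. It was at 5.26, 4.05 and 5.23 CPM in neo cultures and at 4.97, 2.26 and 5.43 CPM in puro cultures. The vectors overlapped, and both were below each WT library. Phc1 fell by 2.54 (SE 0.32, edgeR adjusted p = 5.65e-05), by 2.17 in the low-share and 2.96 in the high-share contrast (adjusted p = 0.00164 and 8.95e-05). Its share of the 3 PHC genes per kb was 18.7 ± 0.6% for WT (SD, n = 4) and 6.7 ± 1.8% for MLL-AF9 (SD, n = 6). Phc3, named here after its values were seen, moved the other way, from 8.2% to 46.7% of the PHC sum, and rose by 1.75 (log2; SE 0.41, edgeR adjusted p = 0.00301). Within HSPCs the share of Phc1 ranged from 17.1 to 22.1% over both genotypes and both share classes. These PHC shares were not corrected for GC content.

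**Figure D2:**
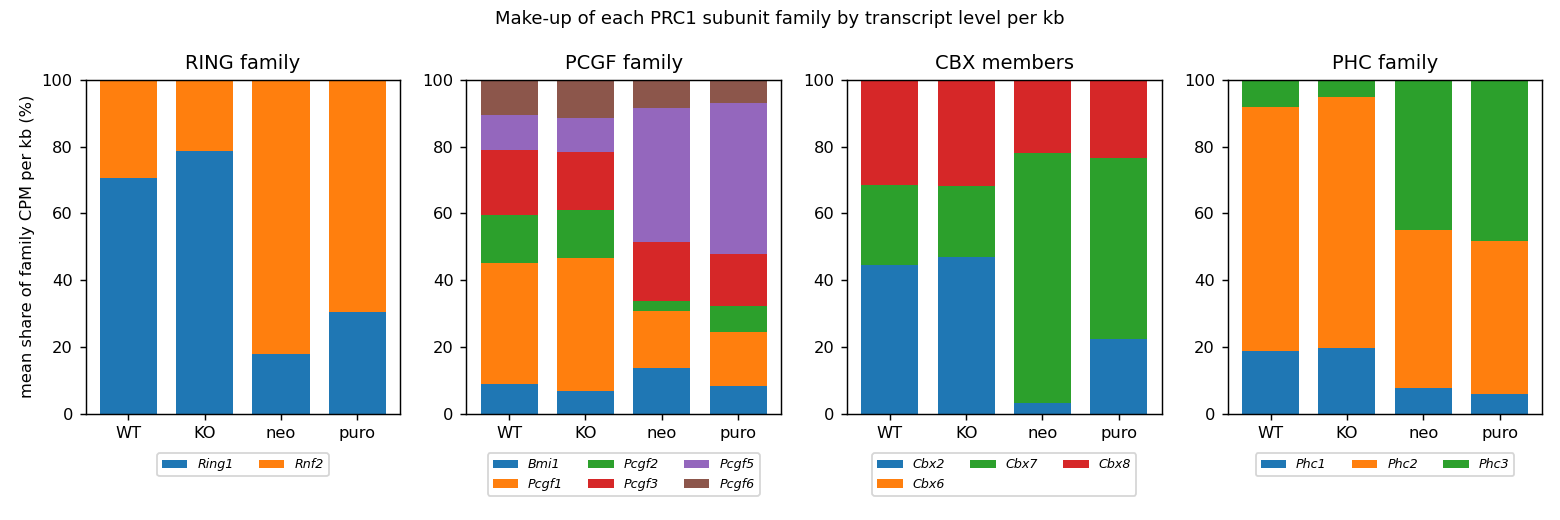
Mean share of each gene in the summed CPM per kb of its PRC1 family (for CBX, of the members alone), in percent, for WT and Mir139KO HSPCs (n = 4 each) and neo and puro MLL-AF9 cultures (n = 3 each). Ring1 held 70.6% of the RING level in WT HSPCs and 18.0% in neo cultures, Pcgf5 10.5% and 40.3% of the PCGF level, and Cbx2 44.5% and 3.1% of the level of the CBX members. The levels were not corrected for GC content.

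The direction of the members went with the GC content of their transcripts. Rnf2, Bmi1 and Pcgf5, with a GC content of 39.5 to 40.4%, had positive log2 fold changes, and the 5 with 53.1% or more had negative ones. Over the 17048 genes with a GC value, Spearman's rho between log2 fold change and GC content was -0.39, a description across genes of the same libraries. With the GC correction, a spline of GC content per library, 5 members passed: Pcgf5 as higher, and Ring1 (-0.50, adjusted p = 0.0269), Cbx2 (-2.24, adjusted p = 0.0495), Cbx8 and Phc1 (-1.85, adjusted p = 0.000114) as lower. Ring1 did not pass when a replicate block, on the replicate number, was added to the correction (-0.55, edgeR adjusted p = 0.0883). MLL-AF9 replicates 5 and 6 have no HSPC library of their number, so with the block they do not enter the difference. The number is not known to pair samples. Pcgf5, Cbx8 and Phc1 passed with and without the correction and in each share class. The part of GC content in the other differences was not tested further. Log2 fold changes between Mir139KO and WT HSPCs, where 0 genes passed, also went with GC content, with the opposite sign (Spearman's rho 0.43, 15038 genes).

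**Figure D3:**
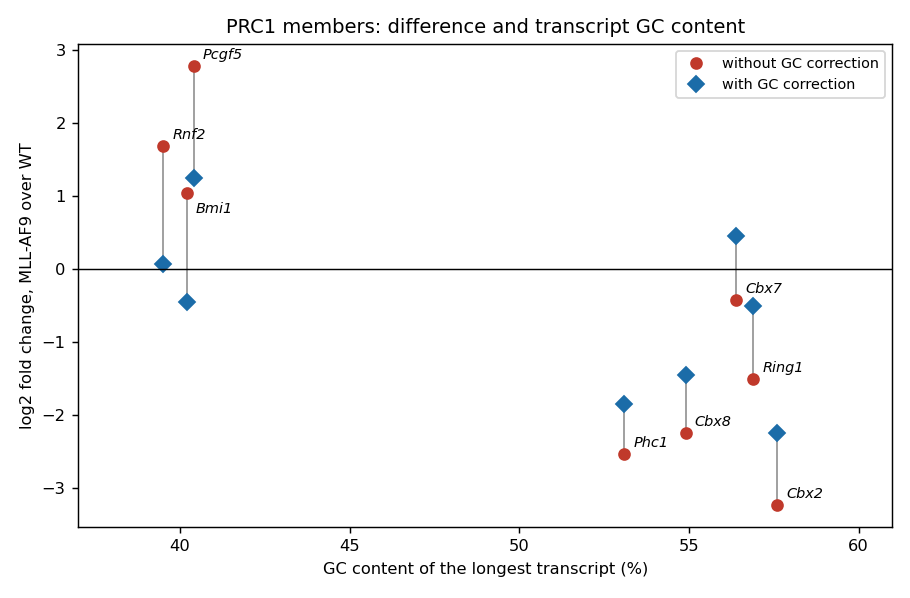
Log2 fold change of 8 members in MLL-AF9 cells (n = 6) over WT HSPCs (n = 4) against the GC content of their longest transcript, in percent, without (circles) and with (diamonds) the GC correction. Rnf2 moved from 1.69 to 0.071, Bmi1 from 1.04 to -0.45, Pcgf5 from 2.79 to 1.25 and Phc1 from -2.54 to -1.85.

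The groups also differed in the RNA of markers of several cell types. Summed over 8 T- and NK-cell markers the level was 112.7 to 214.4 CPM in WT HSPCs and 4.196 to 16.4 CPM in MLL-AF9 cells, where Klrb1c was at 0 counts. The 8 B-cell markers summed to 35.2 to 69.7 and 2 to 7.25 CPM, with Ms4a1 at 0 counts in all groups, and the 10 erythroid markers to 1302 to 1901 and 68.0 to 208.4 CPM, with Hba-a2 and Hbb-bs at 0 counts in MLL-AF9 cells. Plasma-cell markers (6 genes) reached 334.1 to 532.8 and 297.5 to 486.4 CPM, neutrophil markers (8 genes) 1102 to 9236 and 1347 to 4045 CPM, and monocyte and macrophage markers (8 genes) 448.4 to 661 and 49.4 to 535.9 CPM, none of these genes being at 0 in either group. The HSPC markers (8 genes, none at 0) summed to 396.8 to 569 and 172.8 to 989.7 CPM, and 10 proliferation genes (none at 0) to 2470 to 3074 and 438.2 to 2302 CPM. Gene by gene, 6 of the 8 HSPC markers were called lower and 1 higher in MLL-AF9 cells (median log2 fold change -3.85). Of the 6 plasma-cell markers 5 were lower and 1 higher (median -2.67), and of the 8 monocyte and macrophage markers 6 lower and 1 higher. All 8 T- and NK-cell markers, all 7 B-cell markers tested and 9 of the 10 erythroid markers were lower. Of the 8 neutrophil markers 2 were lower and 0 higher, and of the 10 proliferation genes 5 lower and 1 higher. Over all genes tested 29.4% were called lower and 32.8% higher. The part of these markers in the PRC1 differences was not tested.

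MLL-AF9 cells were next set beside Mir139KO HSPCs. This comparison shares its 6 cultures with the one above and is no independent test of them. Of 16953 genes 69.3% passed, 37.3% as higher and 31.9% as lower, and 58.1% did not overlap. Of the 8 members, 7 passed and did not overlap, 3 as higher and 4 as lower. The median over the members was -0.99, against 0.16 over all genes.

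The member added was Bmi1, at 2.24, 6.75, 3.50 and 3.97 CPM in Mir139KO replicates 1 to 4, all below the lowest culture at 7.60 CPM. It rose by 1.6 (log2; SE 0.40, edgeR adjusted p = 0.00326), but did not pass against the low-share libraries alone (1.24, adjusted p = 0.0556) and turned to -0.20 with the GC correction (adjusted p = 0.536). Rnf2 rose by 2.26 (SE 0.30, adjusted p = 4.02e-05) and likewise did not pass with that correction (0.33, adjusted p = 0.150). Pcgf5, at 12.7, 27.5, 21.5 and 15.1 CPM in Mir139KO HSPCs, rose by 3.02 (SE 0.27, adjusted p = 2.69e-06), and by 1.28 with the correction (adjusted p = 5.9e-05).

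Cbx2, Cbx8, Phc1 and Ring1 were the 4 lower members. Cbx2 (-3.48 ± 0.93, log2 fold change and SE) did not pass against the low-share Mir139KO libraries alone (-2.96, edgeR adjusted p = 0.0705). Cbx8 (-2.45 ± 0.42) and Phc1 (-2.65 ± 0.27) passed against either class. Ring1 fell by 1.52 (SE 0.26, adjusted p = 0.000252). For Cbx7 the value was -0.45 (SE 0.35, adjusted p = 0.265).

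**Figure D4:**
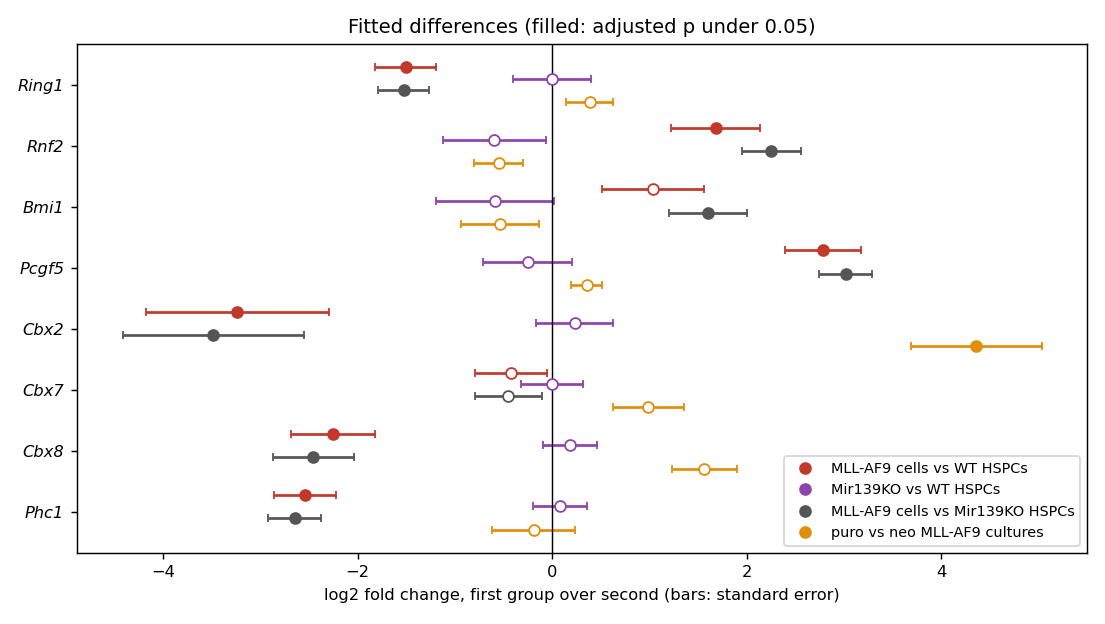
Log2 fold change of each measured member in the 4 comparisons, first group over second, with bars of 1 standard error from the edgeR fits (n = 6 and 4, 4 and 4, 6 and 4, 3 and 3); filled symbols have an adjusted p under 0.05. Filled symbols lie at -3.48 to 3.02 in both comparisons of MLL-AF9 cells with HSPCs, none is in Mir139KO against WT HSPCs, and Cbx2 at 4.36 is the one between vectors.

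Mir139KO and WT HSPCs were compared to ask whether the deletion alone alters the members. None of the 8 passed, and 0% of the 15056 genes tested did (edgeR, and DESeq2 likewise called 0); at an unadjusted p under 0.05 edgeR counted 86 genes and 0 members. The log2 fold changes of the members lay between -0.59 and 0.23, with a median of -0.001 against -0.03 over all genes.

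Neither member with a seed match had a higher mean in the deleted samples. Pcgf5 was at 19.2 ± 6.7 CPM in Mir139KO and 22.6 ± 13.0 CPM in WT HSPCs (SD, n = 4 each), with a log2 fold change of -0.25 (SE 0.45, edgeR adjusted p = 1). Bmi1 was at 4.12 ± 1.90 and 6.11 ± 5.03 CPM (SD, n = 4 each), or -0.59 on the log2 scale (SE 0.61, edgeR adjusted p = 1). Rnf2, with no match, had the same value of -0.59 (SE 0.53). These standard errors leave changes of that size undecided. Over 15038 genes, log2 fold changes between the genotypes went with transcript GC content (Spearman's rho 0.43). Rnf2, Bmi1 and Pcgf5 are the AT-rich members, and with the GC correction 0 members passed as well.

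Among the others, Cbx2 was at 31.1 ± 12.1 CPM in Mir139KO and 26.2 ± 11.5 CPM in WT HSPCs (0.23, SE 0.40). Cbx8 (0.18, SE 0.28), Phc1 (0.081, SE 0.28), Cbx7 (0.001, SE 0.32) and Ring1 (-0.003, SE 0.40) lay closer to 0, and edgeR's adjusted p was 1 for all. With the share class as a covariate, within the low-share libraries and within the high-share libraries, again 0 members passed. The genotypes overlapped for each of the 8 members. Each genotype held libraries of both share classes, so a member that did not overlap between the classes had to overlap between the genotypes. For such members, all but Bmi1, the overlap does not speak to the deletion.

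The puro and neo vectors were compared within the MLL-AF9 cultures (n = 3 each). The puro replicates 4 and 6 were far more alike than any other pair of cultures, with a chi-square per gene of 10.8 against 78.9 or more. They still differed beyond sampling noise and were kept as 2 samples, but this does not show that they were separate cultures. If they were not, n = 3 overstates the puro group and the p-values of this comparison are too small. With both summed to 1 sample, 5 genes and 0 members passed. Of 16503 genes 0.873% passed and 19.9% did not overlap between the vectors. Of the 8 members, 1 passed and 5 did not overlap. The median over the members was 0.37, against -0.02 over all genes.

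Cbx2 was the member that passed, at 5.39 ± 0.91 CPM in puro and 0.260 ± 0.190 CPM in neo cultures (SD, n = 3 each). The log2 fold change of puro over neo was 4.36 (SE 0.67, edgeR adjusted p = 0.0493), just under the threshold. It was 3.92 to 5.03 when any 1 culture was left out, and the adjusted p was then over 0.05 except without replicate 5. Cbx8, its neighbour, was at 4.86 ± 0.42 and 1.63 ± 0.35 CPM, did not overlap and did not pass (1.57, SE 0.33, adjusted p = 0.0953). It passed with DESeq2 (adjusted p = 1.55e-06) and when all 14 samples were fitted together (adjusted p = 0.0127).

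Cbx7 (20.6 ± 6.1 and 10.4 ± 3.0 CPM), Ring1 (12.4 ± 1.6 and 9.50 ± 0.55 CPM) and Pcgf5 (177.9 ± 8.3 and 138.4 ± 9.05 CPM) did not overlap either, being higher in puro cultures, with log2 fold changes of 0.99, 0.39 and 0.36 (edgeR adjusted p = 0.304, 0.554 and 0.399). Rnf2 (-0.55), Bmi1 (-0.54) and Phc1 (-0.19) overlapped between the vectors, at an adjusted p of 0.406, 0.631 and 0.877. Phc1 in replicate 5, at 2.26 CPM, was less than any other culture.

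The cultures differed in other genes too. HSPC markers (8 genes) summed to 524.1 to 989.7 CPM in puro and 172.8 to 327 CPM in neo cultures, and monocyte and macrophage markers (8 genes) to 165.7 to 535.9 and 49.4 to 113.7 CPM, with no gene of either list at 0 over a vector's cultures. Neutrophil markers (8 genes, none at 0) lay at 1347 to 2370 and 2219 to 4045 CPM. Their part in the difference of Cbx2 was not tested.

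The other genes of the complexes were taken as 33 further PRC1 genes and 8 genes of H2A deubiquitinases, the enzymes that remove the mark PRC1 places. In MLL-AF9 cells against WT HSPCs 16 of the 32 PRC1 genes tested passed, 5 as higher and 11 as lower, and of the 7 deubiquitinase genes tested 3 were higher and 2 lower, against 62.2% of all genes. Against Mir139KO HSPCs 9 were higher and 10 lower of the 32, with 3 and 2 of the 7, beside 69.3% of all genes called, 37.3% as higher and 31.9% as lower. Between the HSPC genotypes 0 of these genes passed, and 0 had an unadjusted p under 0.05.

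Against WT HSPCs, MLL-AF9 cells had 2 higher and 8 lower calls among the 20 partners of variant forms tested. There were 2 higher and 0 lower calls among the 6 other core and PCGF genes, and 1 and 3 among the 6 other canonical genes. The background in this comparison was 32.8% higher and 29.4% lower calls over 17077 genes. Whether these short lists differ from it or from each other in direction was not tested. Yaf2, counted with the core, went from 12.9 ± 8.3 (WT, SD, n = 4) to 70.3 ± 24.98 CPM (MLL-AF9, SD, n = 6), which is 2.42 on the log2 scale (SE 0.46, edgeR adjusted p = 0.000838). Rybp, the related protein that takes the place of a CBX subunit, went from 13.5 ± 10.4 to 64.2 ± 15.3 CPM (2.22, SE 0.52, adjusted p = 0.00280). Mga, a DNA-binding subunit of the PCGF6 form, rose by 2.13 (SE 0.43, adjusted p = 0.00116). Yaf2, Rybp and Mga rose by 1.73, 1.448 and 1.445 against low-share libraries and by 3.49, 3.69 and 3.22 against high-share ones. With the GC correction these rises were 1.89, 1.42 and 0.99, and all passed.

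Among the falls, Phc2, a relative of Phc1, went from 139.4 ± 56.4 to 42.0 ± 3.3 CPM (-1.75, SE 0.27, edgeR adjusted p = 0.000216), and Csnk2b, the regulatory subunit of casein kinase 2, which is found in the PCGF5 form, went from 149.4 ± 67.4 to 44.8 ± 10.8 CPM (-1.75, SE 0.31, adjusted p = 0.000527). Against low-share libraries Phc2 and Csnk2b fell by 1.18 and 1.09, and against high-share ones by 2.27 and 2.33. With the GC correction these were -0.61 and -1.01 (adjusted p = 0.00257 and 0.00345), and Phc2 did not pass when a replicate block was added to it (-0.59, adjusted p = 0.0528). Of the deubiquitinases, Mysm1 rose by 2.83 (SE 0.45, adjusted p = 0.000252), whereas Usp21 fell by 1.95 (SE 0.26, adjusted p = 9.28e-05) and Bap1 by 1.58 (SE 0.29, adjusted p = 0.000608). Their values were 2.19, -1.44 and -1.06 for low-share and 3.79, -2.45 and -2.08 for high-share libraries. The GC correction gave 1.27, -0.94 and -0.79 for these, all past the threshold. Transcripts of the 4 genes that rose had a GC content of 40.0 to 45.6%, and those of the 4 that fell 53.3 to 60.4%.

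Between the vectors 1 gene of these lists passed, Auts2, a subunit of PCGF3 and PCGF5 forms. It was at 9.02, 7.14 and 10.24 CPM in puro cultures and at 0.156, 0.276 and 0.200 CPM in neo cultures, or 8, 14 and 11 counts. WT HSPCs held 8.58 to 11.7 CPM and Mir139KO HSPCs 7.74 to 14.2 CPM, so that neo cultures alone were low. The log2 fold change of puro over neo was 5.37 (SE 0.42, edgeR adjusted p = 0.00861), and it did not pass without replicate 2, 3, 4 or 6 (adjusted p = 0.0625 to 0.0787).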

How the data were processed

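Gene counts of 14 libraries were analysed. The authors mapped reads with STAR 2.5.3e to GRCm38, and the deposited counts are raw whole numbers per gene from featureCounts 1.6.0 with a GENCODE annotation; FastQC 0.11.8 and DESeq2 1.22.2 are also named in the processing notes. Strand setting and handling of reads on several genes are not given in the sources used here. The members and gene lists were chosen with earlier results of these data known. Labels gave the groups, the vectors and the replicate numbers.

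Each comparison was fitted on its own samples over all genes with at least 10 counts in as many libraries as the smaller group, with edgeR 4.0.16 (R 4.3.3, limma 3.58.1): TMM factors, robust quasi-likelihood F test, Benjamini-Hochberg adjustment, called under 0.05. Each SE was computed as the size of the log2 fold change over the root of its F value. Displayed log2 CPM used a prior count of 2. Exon length (for CPM per kb) and GC content came from GENCODE M21, which matched 52403 of 52550 genes.

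Genes named were the 9 members and, of the other PRC1 and deubiquitinase lists, the 4 largest called rises and falls in MLL-AF9 against WT with a mean log2 CPM not under 3, and those called between genotypes or vectors. The alternatives were the Wald test of DESeq2 1.42.0, RLE factors, library totals alone, no filter, all 14 samples in a single fit, a replicate block, a GC correction (spline with 5 degrees of freedom per library as offset, fitted on the transcript GC content), both together, HSPC libraries under or over a Gm26917 share of 25%, that class as a covariate, each vector alone, MLL-AF9 replicates 4 and 6 summed, and each replicate left out. In simulated data for MLL-AF9 against WT (16821 genes), the test called 200 of 200 genes changed by 2 (log2) and 10 unchanged ones. With a simulated GC bias it called 635 unchanged genes without and 14 with the GC correction. Each gene had a dispersion of 0.05, and no share classes were simulated. The bias was the same in all MLL-AF9 samples and absent from WT. The simulation therefore does not give the power in these libraries, nor whether the correction spares true differences that go with GC content. Another deposited table repeats these counts beside 10 columns of another series, which were not used. Floors of 3 counts cover counting error only, since the reads carry no molecular identifiers and repeats of a molecule cannot be told apart.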

Additional observations from a re-analysis of the deposited data

Results flagged for a closer look

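Phc1 in MLL-AF9 replicate 5 lay far from the other 5 cultures by Dixon's test, at a log2 CPM of 1.20. It was the 1 flag among 51 groups of libraries looked at, where chance flags about 1 in 20.

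Between vectors, Cbx2 (log2 fold change of puro over neo 4.36) and Auts2 (5.37) differed by the test of the vectors themselves. The vector and the transductions that made each set of cultures cannot be told apart.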

How the results depend on the processing

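With the GC correction and replicate block together, 4 members passed between MLL-AF9 cells and Mir139KO HSPCs in place of 7, and 4 in place of 6 against WT. In these blocked fits MLL-AF9 replicates 5 and 6, which have no HSPC library of their number, do not enter the difference. Ring1 (-0.55, adjusted p = 0.0883) and Rnf2 (0.16, adjusted p = 0.605) lost their calls against WT, and so did Phc2 (-0.59, adjusted p = 0.0528). Between vectors, 0 members passed with RLE factors, with the GC correction and with MLL-AF9 replicates 4 and 6 summed, 2 passed with the DESeq2 Wald test and with all 14 samples in a single fit, and 0 to 1 passed with a culture left out. Of the other PRC1 and deubiquitinase genes, 0 passed between vectors with replicates 4 and 6 summed, and 0 to 1 with a culture left out.

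Signs turned for Bmi1 with the GC correction (-0.45 against WT, -0.20 against Mir139KO HSPCs) and with GC correction and replicate block (-0.40 and -0.17), and for Cbx7 with total counts only (0.28 and 0.36), the GC correction (0.46 and 0.54), both (0.20 and 0.28) and puro cultures alone against WT (0.013). Phc1 between vectors ran from -0.42 to 0.13 with a culture left out, the sign turning without MLL-AF9 replicate 5. No cause was tested.

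Of 725 values under alternatives for members and named genes, 684 kept direction and, where it was compared, side of the threshold. The 725 include the lowest and the highest value over the members between the HSPC genotypes, under 19 alternatives each. For these only the sign was compared, and it was kept in all 19. Pcgf5 (1.16 to 3.65), Cbx8 (-3.21 to -1.46) and Phc1 (-2.96 to -1.74) passed against WT in all 23. Total counts only moved the median of all genes by 0.55 (WT) and 0.69 (Mir139KO), and the share of calls that were higher from 52.7 to 68.3% and from 53.9 to 71.4%; 6 and 7 members passed as before. Between genotypes, same-number correlations were -0.561, 0.642, -0.579 and 0.431 for replicates 1 to 4. They were positive where both samples had the same Gm26917 share class and negative where the classes differed. These values therefore cannot show whether the numbers pair the samples. Between vectors the correlations were 0.447, 0.384 and -0.315. The replicate block left 6, 0, 7 and 1 members past the threshold in the 4 comparisons, with 9300, 0, 11455 and 214 of all genes. Counts of all genes called between vectors moved from 144 to 1326 with DESeq2, 761 with all 14 samples, 5 with replicates 4 and 6 summed and 0 to 990 with a culture left out.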
